A study of Danio rerio with 12 samples.

Results

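Transcripts of the Eph receptors, their ephrin ligands, the semaphorins and the plexin and neuropilin receptors of semaphorins were followed in clusters of zebrafish dorsal forerunner cells (DFCs), the progenitors of the left-right organizer. Members were taken by symbol alone. A gene of the deposited table counted if its symbol, whatever its case, opened with eph, the letter a or b and a digit, with efna or efnb, with sema and a digit, with plxn, or with nrp1 or nrp2. This rule took 69 of 31953 genes, under 68 symbols because plxnb2a names 2 gene IDs. They are 8 EphA receptors, 7 EphB receptors, 7 ephrin-A ligands, 5 ephrin-B ligands, 11 class 3 semaphorins, 16 semaphorins of the other classes, 11 plexins and 4 neuropilins. A mean of at least 1 normalized count over the 12 libraries was required for testing, and 58 members had it. Of the 11 that did not, efna5b, sema4ga and sema6ba were at 0 in every library and the other 8 (sema3ab, efna2a, efnb1, sema5ba, sema5bb, nrp2a, plxna4 and the second plxnb2a, ENSDARG00000094799) had group means of at most 1.89.

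All embryos carried the Tg(sox17:GFP) transgene, in which the sox17 promoter drives GFP in the DFCs and in endoderm. At the 1-cell stage they received a standard control morpholino (8 ng), a morpholino against vgll4l (4 ng) or morpholinos against yap and taz together (4 ng each), so that every cell of the embryo, and not the DFCs alone, was exposed. The GFP-labelled clusters were dissected by hand at 90% epiboly, and 4 libraries of amplified cDNA, each described as a biological replicate, were sequenced per group. The groups are called control, Vgll4l knockdown and Yap/Taz knockdown, and the unit throughout is the normalized count, the reads of a gene divided by a size factor of its library.

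Eph receptors are receptor tyrosine kinases that bind ephrins on the surface of neighbouring cells. Ephrin-A ligands are held by a lipid anchor and ephrin-B ligands span the membrane, and signals pass into both cells, which sorts cells and keeps tissue boundaries sharp. In zebrafish, ephb4b and efnb2b act at the boundary of the DFC cluster. Semaphorins signal through plexins, and the secreted class 3 semaphorins do so with neuropilins as co-receptors, which also bind Vegf.

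The control libraries held 4487894 to 6148871 reads, the Vgll4l libraries 8698990 to 11235726 and the Yap/Taz libraries 9071323 to 10774775, so a single read weighs more in the controls (1.13 to 1.62 normalized counts) than in the knockdowns (0.666 to 0.977). The targeted RNAs bear only in part on the knockdowns, since morpholinos block splicing or translation. Transcripts of vgll4l stood at 6694 to 7266 in control, 1016 to 1107 in Vgll4l and 1556 to 1677 in Yap/Taz libraries. Those of yap1 averaged 2250.5, 1442 and 1784, and wwtr1, which encodes Taz, was at 0 in every control library and reached at most 11.3 elsewhere. Values had been scaled per library by the authors. Another scaling (TMM) moved the median log2 fold change of all genes from -0.26 to -0.10 after Vgll4l knockdown. With it 27 members fell and 10 rose after Vgll4l knockdown, in place of the 30 and 9 given below, while of all genes 39.1% fell and 32.3% rose under that scaling. Replicate 2 of the Vgll4l knockdown stood apart from the other 3. It was the highest of the 4 for 31 of the 58 members tested, against 4 to 11 members for each of the others, and for 22 of the 30 members that fell. This count was not taken over all genes, so it does not show a trait of the members. Over genes of the whole table with at least 200 reads, replicate 2 differed from the other Vgll4l libraries by 12.9 to 20.0 times counting noise. Those differed from each other by 2.3 to 4.0 times. Counts over the members were therefore taken again without replicate 2, and by role they differed from those given below only between the knockdowns, where efnb3b became higher in Yap/Taz clusters and plxnb1a no longer was.

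The dissected clusters also differed in markers of other cells. The summed level of 10 forerunner cell markers, sox17 and sox32 among them, was 85064 to 90282 in control libraries, 29569 to 31539 in Vgll4l and 33713 to 34031 in Yap/Taz libraries, and 9 of 9 tested fell after Vgll4l knockdown and 7 of 9 after Yap/Taz knockdown. Only dand5 among them was at 0 in all libraries of a group, in each knockdown. The list also holds vgll4l itself, and the paper reports sox17, sox32 and other genes of it as lower in these knockdowns. Its falls were thus known when it was chosen, and do not measure cell content on their own. The 17 markers of the enveloping layer, the outer epithelium next to the DFCs, summed to 31483 to 32606 in control, 256376 to 317102 in Vgll4l and 38260 to 38661 in Yap/Taz libraries, with 13 of 17 higher after Vgll4l knockdown. The 15 markers of the yolk syncytial layer summed to 13343 to 14376, 49175 to 52140 and 89321 to 91142, and apoea in control, ttr in Vgll4l and apoa4a, apoea, mxtx2 and ttr in Yap/Taz libraries were at 0. The part of these shifts in the values below was not tested, and in bulk clusters fewer cells of a type and less RNA per cell cannot be told apart.

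The members together took 0.255 to 0.267% of the normalized total in control libraries, 0.0538 to 0.0602% in Vgll4l and 0.161 to 0.166% in Yap/Taz libraries, and these ranges did not overlap. In control libraries ephb4b (mean 5739) and ephb3a (mean 3360) were a large part of the members' total of 17530 to 19344. After Vgll4l knockdown 30 of the 58 tested fell, 9 rose and 19 did not pass, where passing asked for a limma adjusted p under 0.05 and a change of at least 1 on the log2 scale in either direction. Among all 17609 genes tested 40.9% fell and 30.5% rose, beside 51.7% and 15.5% of the members. After Yap/Taz knockdown 29 fell (50.0%, background 38.7%), 20 rose (34.5%, background 30.0%) and 9 did not pass. The median log2 fold change of the members was -1.07 after Vgll4l and -0.98 after Yap/Taz knockdown, against -0.26 and -0.27 for all genes. Taken from ratios of group means, with groups of at most 3 reads set to a floor of 3 reads, the medians were -1.65 and -1.37. These leave out 7 members and 1 member at the floor in both groups, and no such median was taken over all genes. A member with no or few reads in a group was tested through its level in the other groups. Against that group it could only be called in 1 direction. Such genes are part of the counts by role below and of the shares of all genes, where they were not set apart.

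Compared directly, 28 members were higher in Yap/Taz than in Vgll4l clusters (48.3%, background 33.2%) and 18 were lower (31.0%, background 30.0%), with a median of 0.79 against 0 for all genes. The 2 groups compared did not overlap in 41 members for Vgll4l and control (70.7%, background 79.2%), in 53 for Yap/Taz and control (91.4%, background 80.9%) and in 45 for the 2 knockdowns (77.6%, background 75.3%). Without Vgll4l replicate 2 the counts were 30 lower and 9 higher after Vgll4l knockdown, beside 41.6% and 29.9% of all genes. The members that did not overlap with control became 46 (79.3%, beside 81.6% of all genes). Both knockdowns were compared with the same 4 control libraries, so their results are not independent and are given side by side.

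**Figure D1:**
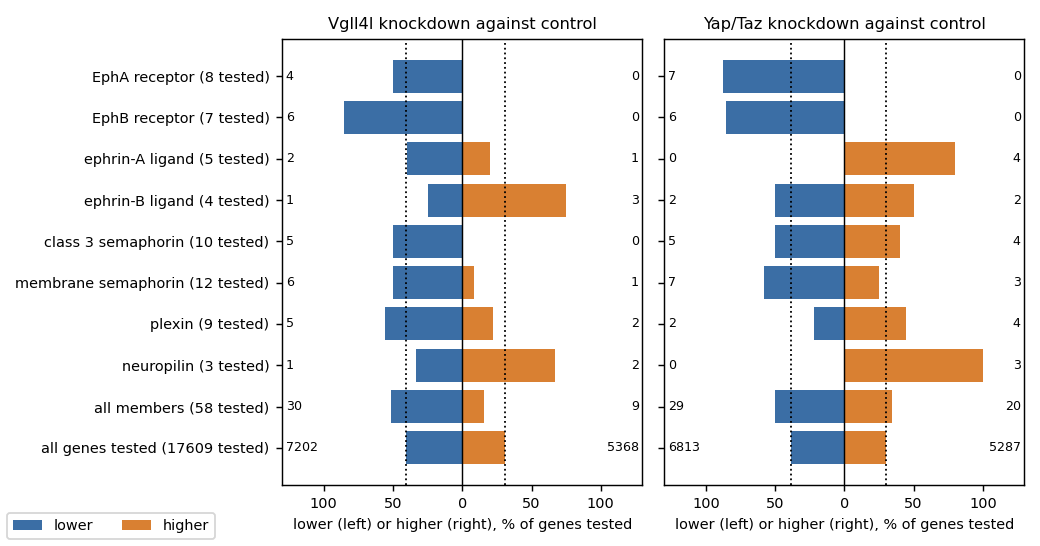
Share of genes of each role that fell (left, blue) or rose (right, orange) after Vgll4l and after Yap/Taz knockdown, as a percent of the genes tested in that role, with the number of genes at the edges and the shares over all 17609 genes tested as dotted lines. Eph receptors lie on the left in both panels, with 0 rises among 15, while 4 of 5 ephrin-A ligands and 3 of 3 neuropilins rose after Yap/Taz knockdown. Genes with no or few reads in a group are counted too, although against it they could only be called in a single direction.

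**Figure D2:**
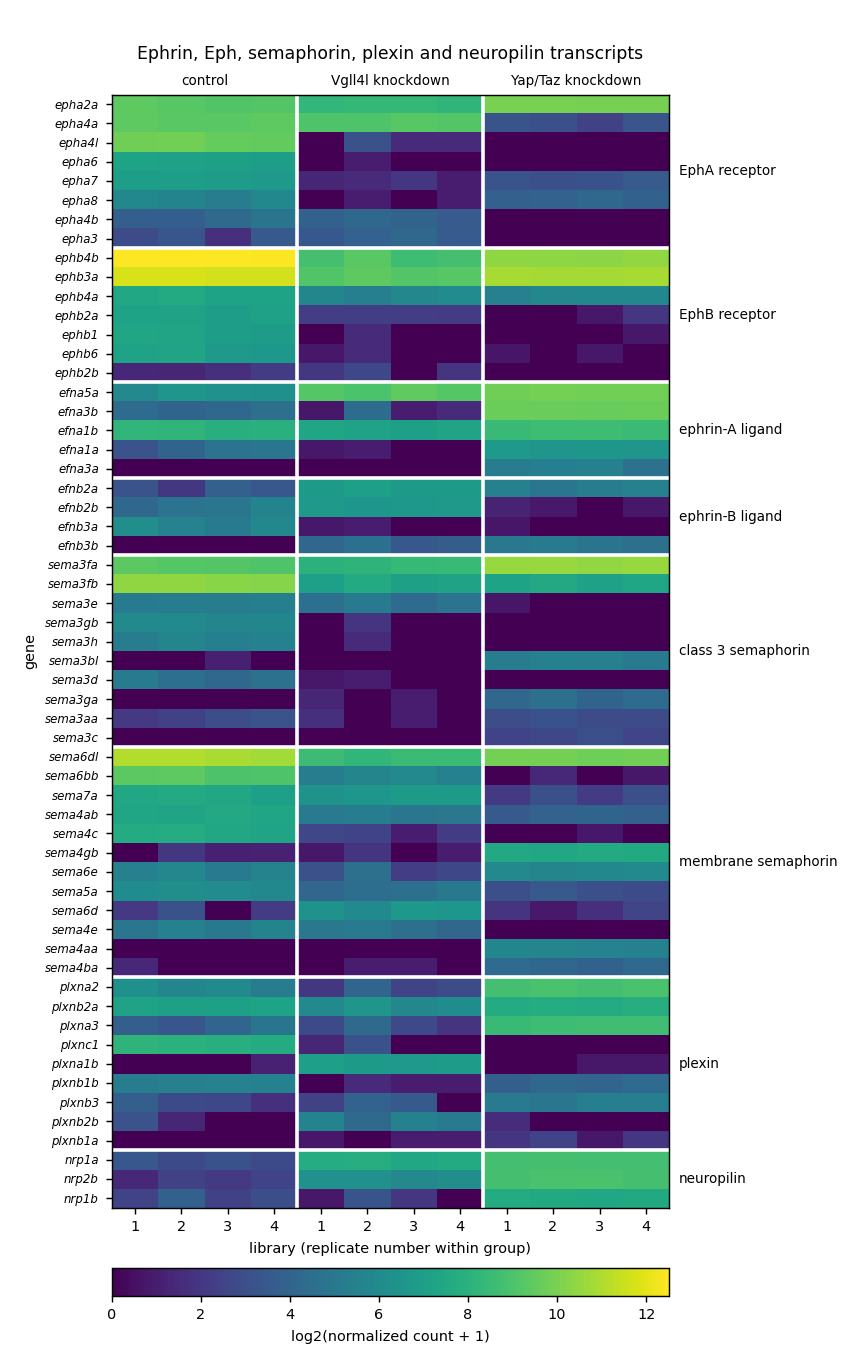
Level of the 58 tested members in each of the 12 libraries, as log2(normalized count + 1), in rows ordered by role and then by mean. The control columns are bright for ephb4b, ephb3a, sema6dl and sema3fb, and the Yap/Taz columns are bright for ephb3a, sema3fa, ephb4b, epha2a, efna5a, sema6dl and efna3b.

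Most Eph receptors fell and none rose. Of 15 tested, 10 were lower and 0 higher after Vgll4l knockdown, and 13 were lower and 0 higher after Yap/Taz knockdown (66.7% and 86.7% lower, beside 40.9% and 38.7% of all genes tested). Among them ephb1, ephb6 and epha6 had at most 3 reads in each knockdown. They were tested through their control levels and could only be called lower. The summed level of the 7 EphB receptors was 9416 to 9952 in control libraries, 1018 to 1364 in Vgll4l and 3193 to 3375 in Yap/Taz libraries. The 8 EphA receptors summed to 2255 to 2626, 880.2 to 967.4 and 1015 to 1066. Few genes carried the EphA sums of the knockdowns. In Yap/Taz libraries epha2a, which was above every control library, averaged 1005 of a mean sum of 1036. In Vgll4l libraries epha4a averaged 565 and epha2a 314 of a mean sum of 912. The plot of 8 receptors by group shows the libraries behind these sums.

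The receptor ephb4b (ENSDARG00000027112), which acts at the boundary of the DFC cluster, had normalized counts of 5829.7, 5852, 5664 and 5609 in the 4 control libraries, 454, 629, 393 and 455 in the Vgll4l libraries and 1384, 1331, 1295 and 1446 in the Yap/Taz libraries. No library of a knockdown reached the lowest control, and the Yap/Taz libraries all lay above the Vgll4l libraries. The mean fell 11.9-fold after Vgll4l knockdown (log2 fold change -3.59 ± 0.10 (SE), adjusted p = 1.65e-12) and 4.21-fold after Yap/Taz knockdown (-2.07 ± 0.10 (SE), adjusted p = 2.58e-10). Between the knockdowns the log2 difference was 1.52 ± 0.10 (SE), adjusted p = 8.09e-09.

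Its paralog ephb4a had counts of 179.7, 197, 154 and 150.4 in control, 52.0, 40.6, 53.7 and 65.4 in Vgll4l and 43.3, 55.1, 56.3 and 55.5 in Yap/Taz libraries. Each knockdown stayed below every control library, and the 2 knockdowns overlapped. The log2 fold change was -1.68 ± 0.16 (SE), adjusted p = 2.23e-07 after Vgll4l and -1.68 ± 0.16 (SE), adjusted p = 2.44e-07 after Yap/Taz knockdown. The difference between the knockdowns was 0.00 (adjusted p = 1).

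The other abundant EphB receptor, ephb3a (ENSDARG00000031548), had counts of 3464, 3433, 3257 and 3286 in control, 550.2, 682, 568 and 621 in Vgll4l and 1881, 1829, 1840.4 and 1870.4 in Yap/Taz libraries. The 3 groups were fully separate, with Yap/Taz in the middle. It fell after Vgll4l knockdown (log2 fold change -2.48 ± 0.06 (SE), adjusted p = 2.28e-13). After Yap/Taz knockdown its log2 fold change was -0.86 ± 0.06 (SE), adjusted p = 5.36e-09, under the fold that was asked for.

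Several receptors went from a clear signal to next to no reads. For ephb1 the control libraries had 165, 160.2, 129.6 and 121 normalized counts, the Vgll4l libraries 0, 1.89, 0 and 0 and the Yap/Taz libraries 0, 0, 0 and 0.73. These are 2 reads in all Vgll4l and 1 read in all Yap/Taz libraries against 424 in control. The ratio to control is 316-fold after Vgll4l knockdown (95% interval from counting alone 86.9 to 2617) and 777-fold after Yap/Taz knockdown (139 to 30780.0). The genes ephb2a and ephb6 had the same shape. Of these, ephb2a averaged 143, 3.80 and 0.91, and ephb6, whose mammalian protein lacks kinase activity, averaged 128, 0.663 and 0.347 in control, Vgll4l and Yap/Taz libraries. The last EphB member, ephb2b, was low in control (mean 2.24) and passed only after Yap/Taz knockdown, where it was at 0.

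**Figure D3:**
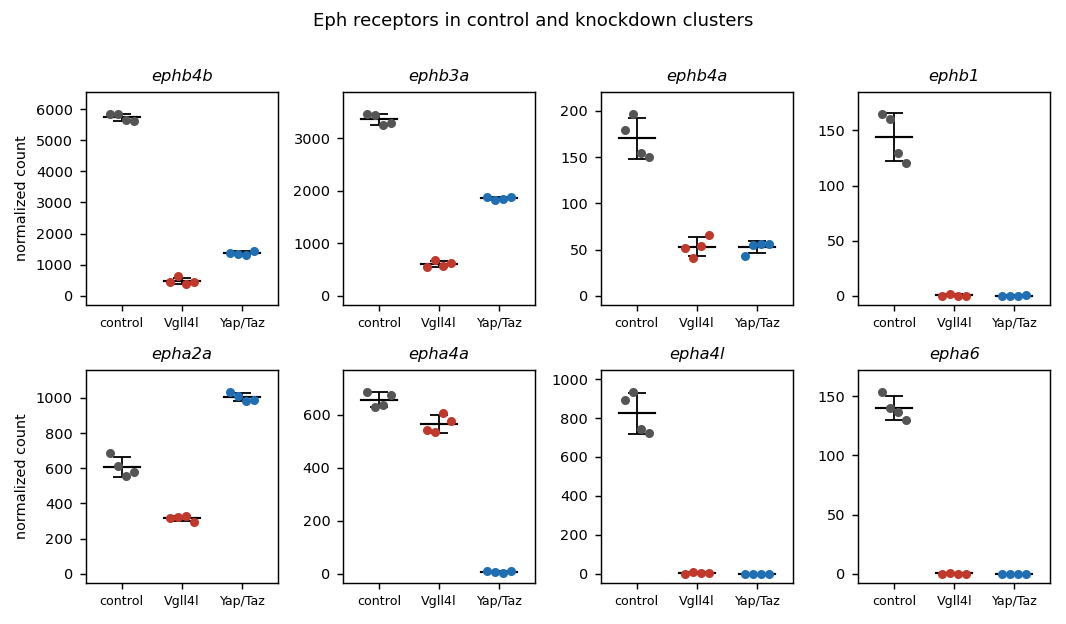
Normalized counts of 8 Eph receptors, 1 point per library in control, Vgll4l knockdown and Yap/Taz knockdown, with the mean as a horizontal line and the SD over 4 libraries as error bars. The EphB receptors ephb4b, ephb3a, ephb4a and ephb1 are highest in control, epha2a is highest in Yap/Taz, and epha4a is near 0 in Yap/Taz libraries.

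Among the EphA receptors the 2 knockdowns differed most at epha4a, a receptor that zebrafish use at hindbrain and somite boundaries. Its counts were 686, 629, 638 and 674 in control, 540.2, 536, 605 and 578 in Vgll4l and 8.66, 7.19, 4.33 and 8.76 in Yap/Taz libraries. Vgll4l libraries lay just below control and did not pass the test (log2 fold change -0.22 ± 0.16 (SE), adjusted p = 0.225). Yap/Taz libraries were 90.8-fold lower than control (-6.36 ± 0.16 (SE), adjusted p = 5.43e-13) and 78.1-fold lower than Vgll4l (-6.14 ± 0.16 (SE), adjusted p = 1.01e-12).

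Its paralog epha4b followed at a low level, with means of 17.9 in control, 14.1 in Vgll4l and 0 in Yap/Taz libraries, and so did epha3, with 7.14, 13.2 and 0. Both were at 0 in every Yap/Taz library, where epha4b was at least 32.7-fold and epha3 at least 13.1-fold lower than control, and neither passed after Vgll4l knockdown. Beside these 3 genes stands the sum of 18 markers of paraxial and ventrolateral mesoderm, which was 6650 to 7983 in control, 5778 to 6220 in Vgll4l and 776.1 to 875.1 in Yap/Taz libraries. Of 14 such markers tested 8 fell and 2 rose after Yap/Taz knockdown (4 and 8 after Vgll4l knockdown). In Yap/Taz libraries aplnra, evx1 and mespaa, which were read in control, were at 0. Also at 0 there were hand2, mespab, mespbb and tal1, which were at 0 in every control library too. Of 16 neural ectoderm markers tested, 7 fell and 4 rose after Yap/Taz knockdown (4 and 7 after Vgll4l knockdown). Of these markers pax2a, six3a, six3b and zic1 were at 0 in Yap/Taz libraries only. The sum of the neural list did not fall, with 2083 to 2600 in control, 2683.5 to 2936 in Vgll4l and 3598 to 3688 in Yap/Taz libraries. The part of either list in the values of epha4a, epha4b and epha3 was not tested.

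The gene named epha4l in the table, an EphA4-like receptor, was lost in both knockdowns. Control libraries had 895, 935, 744 and 722 normalized counts, Vgll4l libraries 0, 7.55, 1.95 and 1.84 and Yap/Taz libraries 0 in each. It fell 290.5-fold after Vgll4l knockdown (-8.14 ± 0.47 (SE), adjusted p = 1.04e-09) and at least 1507-fold after Yap/Taz knockdown (-9.68 ± 0.47 (SE), adjusted p = 1.86e-10 in the fit). The knockdowns overlapped. Their difference passed (-1.54 ± 0.47 (SE), adjusted p = 0.00856), but not with a pseudocount of 10 (adjusted p = 0.0645), and 8 of the 12 Vgll4l reads came from replicate 2. Averaging near-identical libraries left 1 Yap/Taz column, so that setting cannot check the call (log2 difference -1.54).

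For epha6 the counts were 154, 140.4, 136 and 130.3 in control, 0, 0.944, 0 and 0 in Vgll4l libraries and 0 in each Yap/Taz library. A single read was left in the Vgll4l group, and the Yap/Taz mean was at least 256-fold lower than control. Means of epha7 were 120.5, 1.82 and 8.68 and of epha8 49.9, 0.466 and 14.9 in control, Vgll4l and Yap/Taz libraries, and for each the Yap/Taz libraries lay between the other groups without overlap.

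The only Eph receptor with more RNA in Yap/Taz libraries than in every control library was epha2a, a receptor of ephrin-A1 in mammals. It had 685, 610.4, 557 and 578 in control, 315, 323, 325 and 294 in Vgll4l and 1035, 1011, 985 and 990.3 in Yap/Taz libraries. The 3 groups did not overlap, yet neither knockdown reached a log2 fold change of 1 against control (-0.95 and 0.73). The direct difference between them did (log2 1.68 ± 0.07 (SE), adjusted p = 3.29e-11). Another 10 IDs have an Eph, ephrin, semaphorin or plexin name only in the reference of gene names and are no members under the rule, and 4 of them averaged at least 10 in a group. The one called epha2b there, picked after its level was seen, averaged 3384 in control, 111.9 in Vgll4l and 96.9 in Yap/Taz libraries, and SEMA4B averaged 721.2, 419.8 and 1006.

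Ephrin ligands moved in both directions. After Vgll4l knockdown 3 of 9 tested fell and 4 rose (33.3% and 44.4%, beside 40.9% and 30.5% of all genes), and after Yap/Taz knockdown 2 fell and 6 rose (22.2% and 66.7%, beside 38.7% and 30.0%). The genes efna3a and efnb3b had no control read, so against control they could only be called higher. The 7 ephrin-A ligands summed to 361.9 to 412 normalized counts in control, 670.3 to 842.3 in Vgll4l and 2238 to 2286 in Yap/Taz libraries, with every library of both knockdowns above every control library. Of 5 ephrin-A ligands tested, 2 were lower after Vgll4l knockdown and 1 was higher. The latter, efna5a, averaged 76.4 in control and 601 in Vgll4l libraries and carried the rise of the sum there. The 5 ephrin-B ligands summed to 74.8 to 114.9 in control, 223.8 to 254 in Vgll4l and 65.0 to 76.0 in Yap/Taz libraries. In the plot of 8 ephrins by group, the ephrin-B2 genes peak in Vgll4l libraries and the ephrin-A genes in Yap/Taz libraries.

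The ephrin-A ligand efna5a (ENSDARG00000089790), known for guiding retinal axons in vertebrates, had 58.3, 91.6, 78.9 and 77.0 in control, 602, 498, 702 and 603 in Vgll4l and 904, 948, 932 and 916 in Yap/Taz libraries. Each knockdown lay above every control library and Yap/Taz above every Vgll4l library. It rose 7.86-fold after Vgll4l knockdown (log2 fold change 2.97 ± 0.13 (SE), adjusted p = 4.76e-11) and 12.1-fold after Yap/Taz knockdown (3.60 ± 0.13 (SE), adjusted p = 8.3e-12).

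The ephrin with the largest fitted log2 rise after Yap/Taz knockdown was efna3b. Its counts were 19.4, 15.3, 18.04 and 23.7 in control, 0.764, 20.8, 0.977 and 1.84 in Vgll4l and 846, 815, 790.3 and 834 in Yap/Taz libraries. It rose 43.0-fold after Yap/Taz knockdown (5.37 ± 0.60 (SE), adjusted p = 1.17e-06). In the Vgll4l group replicate 2 lay inside the control range while the other 3 libraries were at 1 or 2 reads. The fall there passed (-2.37 ± 0.60 (SE), adjusted p = 0.00206) but was lost with DESeq2 (adjusted p = 0.0503) and with near-identical libraries averaged (adjusted p = 0.175). Its paralog efna3a was read in Yap/Taz libraries alone, at 38.6, 40.7, 42.6 and 24.1, against 0 in each control and Vgll4l library, and was at least 35.7-fold higher than control.

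For efna1b, an ephrin-A1 gene, the counts were 303, 289.9, 239 and 249 in control, 165, 147, 139.7 and 159 in Vgll4l and 345, 389.6, 398 and 372 in Yap/Taz libraries. The groups were separate, but against control neither log2 difference (-0.81 and 0.48) reached the fold asked for, while Yap/Taz exceeded Vgll4l by 1.29 ± 0.10 (SE), adjusted p = 1.56e-08. The paralog efna1a averaged 19.7, 0.427 and 97.3 in control, Vgll4l and Yap/Taz libraries. It fell after Vgll4l and rose after Yap/Taz knockdown (log2 fold change 2.39 ± 0.37 (SE), adjusted p = 3.76e-05), and its 4 control libraries were spread from 8.09 to 29.6.

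**Figure D4:**
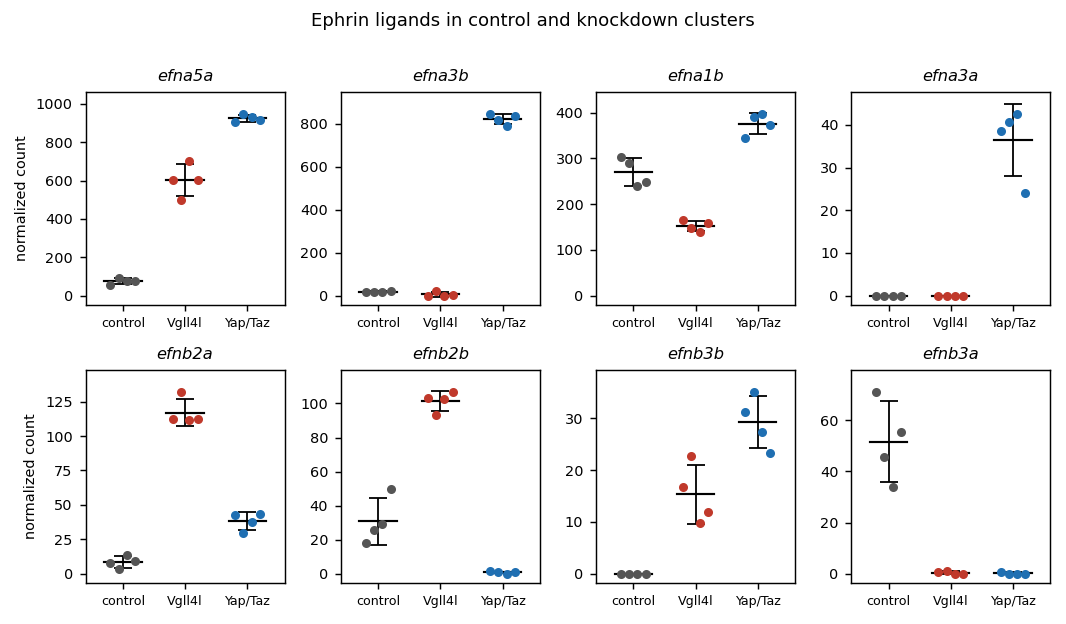
Normalized counts of 8 ephrin genes, 1 point per library in the 3 groups, with the mean as a line and the SD over 4 libraries as error bars. Yap/Taz libraries are highest for efna5a, efna3b, efna1b, efna3a and efnb3b, Vgll4l libraries are highest for efnb2a and efnb2b, and efnb3a is read almost only in control.

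The ephrin-B2 genes separated the knockdowns. The ligand efnb2b (ENSDARG00000074050), which pairs with ephb4b at the DFC boundary, had 17.8, 25.9, 29.3 and 49.7 in control, 103, 93.5, 103 and 107 in Vgll4l and 1.33, 0.798, 0 and 0.73 in Yap/Taz libraries. The 3 groups did not overlap. It rose 3.31-fold after Vgll4l knockdown (log2 fold change 1.79 ± 0.32 (SE), adjusted p = 0.000131) and fell 42.9-fold after Yap/Taz knockdown (-4.18 ± 0.32 (SE), adjusted p = 2.13e-08). The Yap/Taz group held 4 reads of efnb2b in all, so the size of that fall is imprecise. The direct difference between the knockdowns was -5.96 ± 0.32 (SE), adjusted p = 6.18e-10.

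Its paralog efnb2a, which acts at somite boundaries and in arteries, had 8.09, 3.05, 13.5 and 9.47 in control, 112, 132, 111 and 112 in Vgll4l and 42.6, 29.5, 37.5 and 43.1 in Yap/Taz libraries. All libraries of both knockdowns exceeded control, with Vgll4l above Yap/Taz. The rise was 13.7-fold after Vgll4l knockdown (3.77 ± 0.31 (SE), adjusted p = 4.93e-08) and 4.47-fold after Yap/Taz knockdown (2.16 ± 0.31 (SE), adjusted p = 1.85e-05). After Vgll4l knockdown the transcripts of the receptor ephb4b were lower and those of both ephrin-B2 genes higher, and after Yap/Taz knockdown ephb4b and efnb2b were lower and efnb2a was higher.

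The ephrin-B3 pair split as well. Counts of efnb3b were 0 in each control library, 16.8, 22.7, 9.77 and 12.0 in Vgll4l and 31.3, 35.1, 27.4 and 23.4 in Yap/Taz libraries, at least 15.0-fold and at least 28.6-fold above control. The knockdowns did not overlap, but their log2 difference of 0.94 missed the fold asked for, and passed it without Vgll4l replicate 1 (1.01), Vgll4l replicate 2 (1.15) or Yap/Taz replicate 4 (1.04). Its paralog efnb3a ran the other way, with 33.8 to 71.2 in control, and 2 reads were left in all Vgll4l and 1 in all Yap/Taz libraries. Beside the rises of efna5a, efnb2a and efnb2b in Vgll4l libraries stands the rise of the summed epidermal markers, 11 genes, from 1091 to 1197 in control to 9454 to 10710 in Vgll4l libraries (1841 to 1938 in Yap/Taz). The summed enveloping layer and yolk syncytial markers given above also rose in Vgll4l libraries. The part of any of these markers in the ephrin values was not tested.

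The class 3 semaphorins, secreted guidance cues, were split. After Vgll4l knockdown 5 of 10 tested fell and 0 rose (50.0% fell, beside 40.9% of all genes), and after Yap/Taz knockdown 5 fell and 4 rose (50.0% and 40.0%, beside 38.7% and 30.0%). Their summed level was 1909 to 2205 in control, 423 to 528 in Vgll4l and 1659 to 1785 in Yap/Taz libraries. The Yap/Taz sum lay close below control, with falls and rises of single members behind it. Against control, sema3ga and sema3c (no control read) and sema3bl (1 control read) could only be called higher. After Yap/Taz knockdown sema3d, sema3gb and sema3h, at 0 there, could only be called lower.

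The sema3f paralogs make up most of that sum. For sema3fb (ENSDARG00000055373) the counts were 1379, 1378, 1263 and 1192 in control, 132, 203, 136 and 148 in Vgll4l and 153, 184, 144 and 161 in Yap/Taz libraries. The knockdowns overlapped each other, both far below control, with folds of 8.42 after Vgll4l (log2 -3.08 ± 0.13 (SE), adjusted p = 3.37e-11) and 8.11 after Yap/Taz knockdown (-3.02 ± 0.13 (SE), adjusted p = 4.31e-11). For sema3fa the counts were 652, 597, 578 and 545 in control, 263, 281, 328 and 345 in Vgll4l and 1531, 1519, 1442 and 1515 in Yap/Taz libraries.

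The 3 groups of sema3fa were fully apart. It rose 2.53-fold after Yap/Taz knockdown (log2 fold change 1.34 ± 0.08 (SE), adjusted p = 2.37e-09), opposite to sema3fb. After Vgll4l knockdown its log2 fold change of -0.97 missed the fold asked for, and passed it when control replicate 4 (-1.01), Vgll4l replicate 3 (-1.005) or Vgll4l replicate 4 (-1.03) was left out. Yap/Taz libraries were 4.93-fold above Vgll4l libraries (2.31 ± 0.08 (SE), adjusted p = 1.56e-11).

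Fainter class 3 genes were read in control and nearly lost in both knockdowns. Control libraries had 59.9, 59.5, 50.7 and 53.3 for sema3gb, and the Vgll4l libraries 0, 2.83, 0 and 0. For sema3h control libraries had 38.9, 53.4, 40.6 and 43.8 and Vgll4l libraries 0, 1.89, 0 and 0. For sema3d, an axon guidance cue in zebrafish, control libraries had 35.6, 22.9, 16.9 and 24.9 and Vgll4l libraries 0.764, 0.944, 0 and 0. All 3 genes were at 0 in every Yap/Taz library, at least 102-, 80.8- and 45.8-fold lower than control, and the reads left in Vgll4l libraries were mostly those of replicate 2.

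Others, sema3bl, sema3ga and sema3c, were read only or almost only in Yap/Taz libraries. The gene the table calls sema3bl, which the reference of gene names calls SEMA3G, had 37.3, 43.9, 43.3 and 35.8 in Yap/Taz libraries against a single read in all control and 0 in all Vgll4l libraries. Means of sema3ga were 0, 0.626 and 19.0 and of sema3c 0, 0 and 5.64 in control, Vgll4l and Yap/Taz libraries, at least 18.6-fold and at least 5.52-fold above control. The gene sema3e had 37.7 in control and 26.0 in Vgll4l, and 1 read was left in the Yap/Taz group. Means of sema3aa were 5.72, 0.817 and 6.93, lower after Vgll4l knockdown only.

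The other semaphorins span the membrane or, as sema7a, hang on a lipid anchor. After Vgll4l knockdown 6 of 12 tested were lower and 1 was higher (50.0% and 8.33%, beside 40.9% and 30.5% of all genes), and after Yap/Taz knockdown 7 were lower and 3 were higher (58.3% and 25.0%, beside 38.7% and 30.0%). They summed to 2915 to 3554 in control, 636.3 to 717.2 in Vgll4l and 1203 to 1306 in Yap/Taz libraries.

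The most read of them, sema6dl (ENSDARG00000011533), had 2124, 2121, 1965 and 1764 in control, 379, 300.2, 364 and 363 in Vgll4l and 959, 938, 857 and 934 in Yap/Taz libraries. Its 3 groups were apart, with Yap/Taz in the middle. The fall was 5.67-fold after Vgll4l (-2.50 ± 0.08 (SE), adjusted p = 3.72e-12) and 2.16-fold after Yap/Taz knockdown (-1.11 ± 0.08 (SE), adjusted p = 1.04e-08). The latter came just under the fold asked for in edgeR (log2 fold change -0.99).

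For sema6bb, whose class binds A-type plexins, the counts were 665, 682, 512 and 536 in control, 38.2, 51.0, 57.7 and 44.2 in Vgll4l and 0, 1.60, 0 and 0.73 in Yap/Taz libraries. The order of the groups was thus the reverse of that of sema6dl for the knockdowns. It fell 12.5-fold after Vgll4l knockdown (-3.63 ± 0.29 (SE), adjusted p = 2.98e-08). The 3 reads left in the Yap/Taz group give a ratio to control of 1079 (95% interval from counting alone 368.5 to 5236).

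Levels of sema7a, a ligand of plexin C1 and of integrins in mammals, were 179.7, 197, 174 and 131 in control, 82.5, 95.4, 112 and 111 in Vgll4l and 3.33, 7.19, 3.61 and 7.30 in Yap/Taz libraries. Vgll4l libraries were all below control but short of the fold asked for (-0.76 ± 0.24 (SE), adjusted p = 0.00951), and Yap/Taz libraries were 31.8-fold lower (-4.80 ± 0.24 (SE), adjusted p = 2.26e-10). For sema4c, a ligand of plexin B2 in mammals, the counts were 209, 217, 180.4 and 157 in control, 5.35, 4.72, 0.977 and 3.69 in Vgll4l and 0, 0, 0.722 and 0 in Yap/Taz libraries. It fell 51.8-fold after Vgll4l knockdown (-5.47 ± 0.36 (SE), adjusted p = 3.69e-09), and 1 read was left in the Yap/Taz group. Control and Vgll4l libraries did not differ past the test for sema4e, with 29.1, 44.3, 32.7 and 48.5 and 31.3, 34.0, 23.5 and 16.6, while the Yap/Taz libraries had 0 in each, at least 70.7-fold lower than control.

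The rises after Yap/Taz knockdown were those of sema4gb, sema4aa and sema4ba, all of class 4. With no control read for sema4aa and a single such read for sema4ba, these genes could only be called higher against control. The gene sema4gb had 0, 3.05, 1.13 and 1.18 in control, 0.764, 2.83, 0 and 0.921 in Vgll4l and 189, 176, 198 and 196 in Yap/Taz libraries, a rise of 142-fold over control (6.52 ± 0.44 (SE), adjusted p = 4.87e-09). The control group held 4 reads of sema4gb in all, so the size of that rise is imprecise. Counts of sema4aa were 52.6, 50.3, 46.2 and 43.8 in Yap/Taz libraries and 0 in each other library, at least 47.1-fold above control, while its paralog sema4ab averaged 171, 33.1 and 13.3 in control, Vgll4l and Yap/Taz libraries. The single rise after Vgll4l knockdown was that of the gene the table calls sema6d (sema6ca in the reference), with 0 to 7.63 in control, 63.3 to 99.7 in Vgll4l and 0.798 to 5.11 in Yap/Taz libraries.

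The remaining membrane semaphorins were faint. Means of sema5a were 64.8 in control, 23.6 in Vgll4l and 7.87 in Yap/Taz libraries, a fall in each knockdown (log2 fold change -1.45 and -2.90). The gene the table calls sema6e (SEMA6C in the reference) fell after Vgll4l knockdown only, with means of 45.1, 10.2 and 56.5, and the Vgll4l mean holds 3.91 to 23.6 over its libraries. For sema4ba the control group had a single read, the Vgll4l group 2 and the Yap/Taz libraries 13.7 to 20.0.

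Plexins, the signaling receptors, were lower in 5 and higher in 2 of 9 tested after Vgll4l knockdown (55.6% and 22.2%, beside 40.9% and 30.5% of all genes), and lower in 2 and higher in 4 after Yap/Taz knockdown (22.2% and 44.4%, beside 38.7% and 30.0%). With at most 1 control read, plxna1b and plxnb1a could only be called higher against control. The plexin sum was 472.5 to 581.2 in control, 231.6 to 278.5 in Vgll4l and 1046 to 1192 in Yap/Taz libraries, with no overlap of the groups. The A-type plexins transmit class 3 signals, and all 3 tested differed between the knockdowns. Of all genes tested, 30.0% were lower and 33.2% higher in Yap/Taz than in Vgll4l clusters.

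Normalized counts of plxna2 (ENSDARG00000060372) were 76.1, 51.9, 59.7 and 37.9 in control, 3.06, 16.1, 4.89 and 6.45 in Vgll4l and 432, 482, 439.5 and 488 in Yap/Taz libraries. It fell 7.41-fold after Vgll4l knockdown (-2.91 ± 0.35 (SE), adjusted p = 2.46e-06) and rose 8.17-fold after Yap/Taz knockdown (3.05 ± 0.35 (SE), adjusted p = 1.61e-06), and the groups did not overlap. The gene plxna3 had 13.0, 9.16, 15.8 and 28.4 in control, 6.11, 18.9, 5.86 and 2.76 in Vgll4l and 354, 389, 403 and 414 in Yap/Taz libraries.

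Yap/Taz libraries were 23.5-fold above control at plxna3 (4.59 ± 0.43 (SE), adjusted p = 1.72e-07). Its Vgll4l libraries overlapped control. The fall there passed narrowly (-1.06 ± 0.43 (SE), adjusted p = 0.0322) and was lost under 8 other settings. Among these is a log2 fold change of at least 2, which it could not meet by construction. The fall was also lost when any 1 of 5 libraries was left out (control replicates 3 and 4 and Vgll4l replicates 1, 3 and 4), with log2 fold changes from -1.05 to -0.72.

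In contrast, plxna1b was read almost only after Vgll4l knockdown. Its counts were 0, 0, 0 and 1.18 in control, 133, 110.5, 109 and 119 in Vgll4l and 0, 0, 0.722 and 0.73 in Yap/Taz libraries. Against the single read of the control group the Vgll4l ratio is 357-fold (95% interval from counting alone 63.8 to 14130.0). Each of the 3 A-type plexins tested was highest in a knockdown, plxna1b in Vgll4l and plxna2 and plxna3 in Yap/Taz libraries, and no library of another group reached that level.

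The plexin of class 7 semaphorins in mammals, plxnc1 (ENSDARG00000015278), fell in both knockdowns. It had 283, 252, 225 and 208 in control, 1.53, 7.55, 0 and 0 in Vgll4l and 0 in each Yap/Taz library. The fall was 107-fold after Vgll4l (-6.81 ± 0.54 (SE), adjusted p = 2.81e-08) and at least 443-fold after Yap/Taz knockdown. Between the knockdowns the test was not passed (adjusted p = 0.0771), but it was with DESeq2 (adjusted p = 0.0073) and edgeR (adjusted p = 0.0128) and without Vgll4l replicate 3 (0.0245) or 4 (0.0248), and 8 of the 10 Vgll4l reads came from replicate 2.

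B-type plexins bind class 4 semaphorins. The main plxnb2a gene (ENSDARG00000003811) had 149, 136, 138 and 150.4 in control, 63.4, 89.7, 53.7 and 67.3 in Vgll4l and 206, 211, 210.0 and 225 in Yap/Taz libraries, with no overlap. Its fall after Vgll4l knockdown (-1.08 ± 0.13 (SE), adjusted p = 3.57e-06) lay near the fold asked for, and missed it with TMM scaling (log2 fold change -0.89), in edgeR (-0.86), with a pseudocount of 10 (-0.98) and without Vgll4l replicate 3 (-0.97). Its paralog plxnb2b rose after Vgll4l knockdown, from a control mean of 2.41 to 37.1, and averaged 0.5 in Yap/Taz libraries. Means of plxnb1b were 42.6, 0.947 and 16.5, of plxnb1a 0, 0.666 and 2.77 and of plxnb3 6.76, 7.37 and 36.1 in control, Vgll4l and Yap/Taz libraries.

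**Figure D5:**
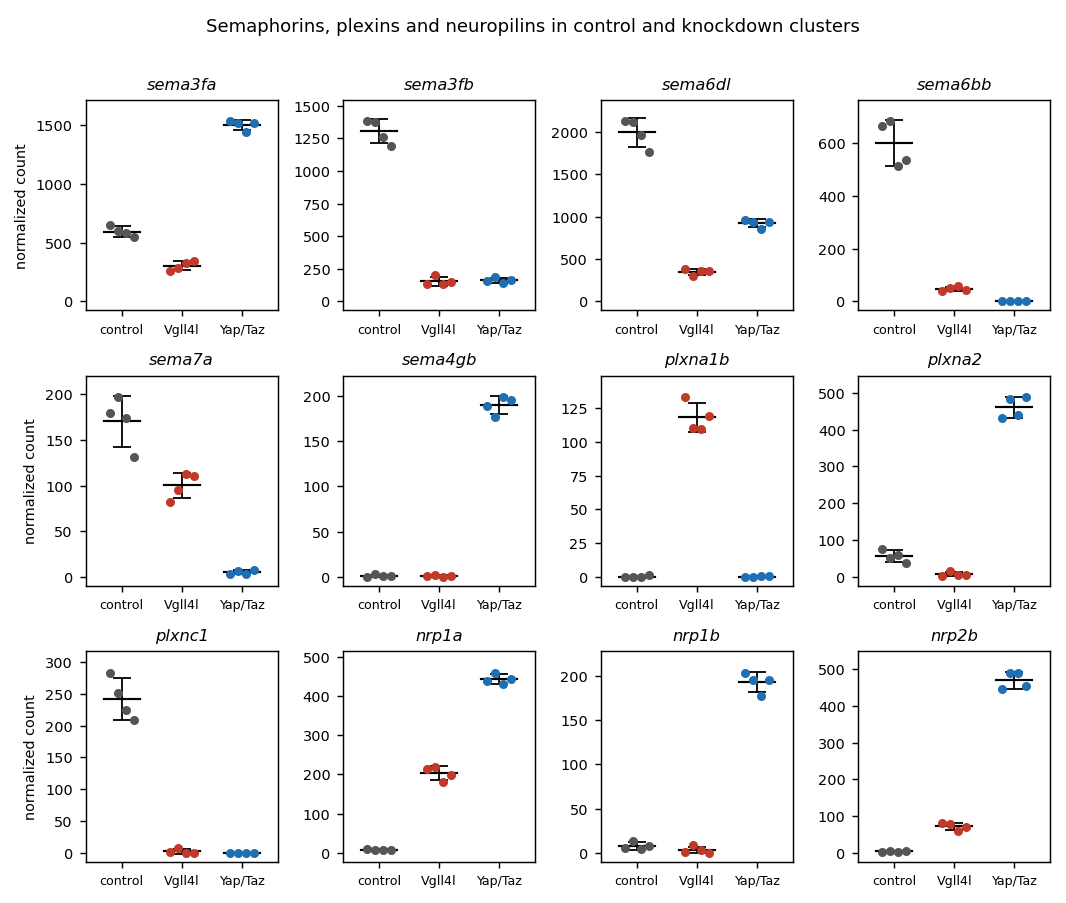
Normalized counts of 6 semaphorins, 3 plexins and 3 neuropilins, 1 point per library in the 3 groups, with the mean as a line and the SD over 4 libraries as error bars. The sema3f paralogs go opposite ways in Yap/Taz libraries, plxna1b is read in Vgll4l and plxna2 is highest in Yap/Taz libraries, and nrp1a and nrp2b rise from near 0 in control in both knockdowns, nrp1b in Yap/Taz libraries alone.

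Neuropilins were faint in control clusters and had the highest median log2 fold change of the 8 roles in each comparison with control (4.05 and 5.75 over the 3 genes tested). Their sum was 16.2 to 24.4 normalized counts in control, 243.3 to 307.8 in Vgll4l and 1091 to 1146 in Yap/Taz libraries. Counts of nrp1a (ENSDARG00000102153), a co-receptor of class 3 semaphorins and of Vegf, were 9.71, 6.10, 7.89 and 5.92 in control, 215, 219, 182 and 198 in Vgll4l and 439, 459.9, 432 and 444 in Yap/Taz libraries. It rose 27.5-fold after Vgll4l (4.62 ± 0.14 (SE), adjusted p = 2.83e-12) and 59.9-fold after Yap/Taz knockdown (5.75 ± 0.14 (SE), adjusted p = 4.68e-13), with no overlap between any 2 groups.

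The pattern of nrp2b, the neuropilin that binds class 3F semaphorins in mammals, was alike in shape. It had 1.62, 4.58, 3.38 and 4.74 in control, 80.2, 78.4, 58.6 and 71.0 in Vgll4l and 448, 490.2, 491 and 454 in Yap/Taz libraries, and rose 20.1-fold after Vgll4l (4.05 ± 0.23 (SE), adjusted p = 6.57e-10) and 132-fold after Yap/Taz knockdown (6.75 ± 0.23 (SE), adjusted p = 5.4e-12). The second neuropilin 1 gene, nrp1b, had 4.86, 13.7, 4.51 and 7.10 in control, 0.764, 8.50, 2.93 and 0 in Vgll4l and 204, 196, 178 and 196 in Yap/Taz libraries.

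Only Yap/Taz libraries exceeded control for nrp1b (25.6-fold, log2 fold change 4.62 ± 0.56 (SE), adjusted p = 2.82e-06). Vgll4l libraries overlapped control, and the fall there (-1.47 ± 0.56 (SE), adjusted p = 0.0253) was lost with TMM scaling (adjusted p = 0.0501), in edgeR (0.118), when just these 2 groups were fitted (0.0858), with a pseudocount of 10 (log2 fold change -0.44), and without control replicate 2 (adjusted p = 0.0845), Vgll4l replicate 1 (0.0749) or Vgll4l replicate 4 (0.0889). Beside these rises stands the sum of yolk syncytial markers, which also was lowest in control and highest in Yap/Taz libraries (13343 to 14376 and 89321 to 91142), and whose part in them was not tested. This sum was 49175 to 52140 in Vgll4l libraries. Of the 13 yolk syncytial markers tested, 3 were higher and 3 lower in Yap/Taz than in Vgll4l libraries and 7 did not pass. This order of the groups is not particular to yolk syncytial markers. The summed axial mesoderm markers had it too (5766 to 6020, 7522 to 7884 and 8114 to 8363 in control, Vgll4l and Yap/Taz libraries), as did the neural ectoderm sum given above. The remaining marker lists did not, and the part of these lists in the neuropilin values was not tested either.

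Many members are pairs of paralogs whose symbols differ only in a last a or b, and 12 such pairs were tested in full. After Yap/Taz knockdown 6 of the 12 pairs moved in opposite directions (50.0%, against 21.2% of all 1257 such pairs in the table) and 5 moved the same way (41.7%, against 24.9%). The 6 are sema3f, sema3g, sema4a, efnb2, efnb3 and plxnb1, and the last rests on a mean of 2.77 for plxnb1a. In these pairs sema3ga, sema4aa, efnb3b and plxnb1a were at 0 in every control library. They were tested through their knockdown levels alone and could only be called higher against control. The same holds for efna3a, of a pair that moved the same way. Such genes were not set apart among all pairs, so the shares do not show that paralogs of this family diverge. After Vgll4l knockdown 2 pairs were opposite (16.7%, against 20.8%), efnb3 and the uncertain nrp1, 2 moved the same way (16.7%, against 27.8%) and 7 had only 1 member past the test. Reads of 50 bases from close paralogs can be split or lost in counting, so values within a pair carry this limit.

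Other genes of the pathways, taken from lists, changed in mixed directions. Of 39 effectors and sheddases of Eph and ephrin signaling tested, 17 were lower and 9 were higher in Vgll4l clusters (median log2 fold change -0.20), and 20 were lower and 8 were higher in Yap/Taz clusters (median -1.32). These are 43.6% and 23.1%, beside 40.9% and 30.5% of all genes, after Vgll4l knockdown and 51.3% and 20.5%, beside 38.7% and 30.0%, after Yap/Taz knockdown. The largest fall in either was that of rgs3a, whose mammalian protein binds ephrin-B tails, from 980 ± 127.9 (SD, n = 4) in control to 3.64 ± 5.21 in Vgll4l and 1.10 ± 0.44 in Yap/Taz libraries. The gene ngef, an exchange factor downstream of EphA receptors, averaged 158.4 ± 19.0, 5.45 ± 3.29 and 109.5 ± 13.3.

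The phosphatase gene ptpn11a rose after Vgll4l knockdown, from 417.1 ± 40.9 to 1487 ± 34.8, and stood at 810.1 ± 35.2 in Yap/Taz libraries. Its neighbour in the list chn2, which encodes a GTPase-activating protein for Rac, averaged 25.7 ± 4.97 in control and 118.4 ± 13.4 in Vgll4l libraries and was at 0 in every Yap/Taz library. After Yap/Taz knockdown ptprja, a phosphatase that acts on Eph receptors in vertebrates, fell from 217.1 ± 30.0 to 0.349 ± 0.404. The polarity gene pard6a rose from 65.0 ± 8.10 to 590.8 ± 28.0 and the adaptor gene nck2b from 19.5 ± 9.22 to 232.1 ± 8.2.

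Of 34 partners and effectors of semaphorins, plexins and neuropilins tested, 18 were lower and 5 were higher in Vgll4l clusters (median -2.02), and 13 were lower and 8 were higher in Yap/Taz clusters (median -0.09). After Vgll4l knockdown the shares are 52.9% and 14.7%, beside 40.9% and 30.5% of all genes. After Yap/Taz knockdown they are 38.2% and 23.5%, near the 38.7% and 30.0% of all genes. Over all genes the medians were -0.26 and -0.27. Transcripts of arhgef11, whose mammalian protein binds B-type plexins, fell from 1378 ± 112.1 in control to 14.5 ± 17.0 in Vgll4l and 218 ± 19.3 in Yap/Taz libraries. The collapsin response mediator dpysl4 fell from 193.5 ± 36.0 to 0.466 ± 0.539 and 0.366 ± 0.426, and gipc3 from 150.9 ± 41.1 to 1.40 ± 1.80 and 0. Higher after Vgll4l knockdown were mical3b (35.2 ± 10.0 to 315.2 ± 42.3) and rac1a (3738 ± 106.4 to 7698 ± 886.2). The Vegf receptor genes kdr (1.57 ± 1.82 to 289.6 ± 20.0) and flt4 (75.6 ± 10.5 to 273 ± 26.6) rose after Yap/Taz knockdown and averaged 3.28 ± 4.81 and 3.07 ± 4.90 in Vgll4l libraries, where nrp1a and nrp2b were above control. Whether the levels of these receptor genes and of the neuropilins are linked was not tested.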

How the data were processed

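RNA of dissected DFC clusters was amplified by the authors with the SMART-Seq v4 kit and sequenced as 50-bp single-end reads, which they aligned with STAR to GRCz10, counted per Ensembl gene with featureCounts and normalized with DESeq2 (versions not given in the sources used here). The deposited table holds a signal per gene and library whose header reads TPM, but all values above 0 (100%, tolerance 0.001) are whole multiples of a step of their column, so they are reads divided by a size factor, and whole reads were recovered. Log2 fold changes and adjusted p-values of the authors are also in the table and were not used, and 0 columns of values were without a sample. No coordinates were used.

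Log2(normalized count + 1) of all 12 libraries was fitted together with limma 3.58.1 (limma-trend) in R 4.3.3, for the 17609 genes with a mean of at least 1, with Benjamini-Hochberg adjustment over them. All 3 groups enter 1 estimate of the spread, so every standard error also draws on the group left out of a comparison. Fold changes in the fit understate changes of low genes. Folds in the text are ratios of group means, or of summed reads over summed size factors where a group has 1 to 3 reads. Against a group at 0 they are bounds, with 3 reads in that whole group as the floor. With 1 to 3 reads they carry an exact binomial 95% interval, which covers counting error only. Errors are the SD over 4 libraries or the SE of the fit. Whether replicates came from separate clutches is not stated beyond the labels, so p-values measure the spread between these libraries.

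Members with a value for every library are ephb4b and efnb2b, up to 3 of each role with the highest mean (at least 50), up to 4 falls and 4 rises per comparison at a mean of at least 100 without overlap, and those at 0 in a group with a mean of at least 20 in another, 36 in all. Others are given by means or ranges. From the pathway lists up to 2 falls and 2 rises per knockdown are named. Members, lists, rules and markers were chosen with earlier results of these data known. Marker lists of 8 tissues were counted, and all but that of endoderm are given above. Alternatives were pseudocounts, filters, TMM scaling, edgeR 4.0.16, DESeq2 1.42.0, the groups compared alone, a replicate block, other fold thresholds, averages of near-identical libraries and each library left out. Same-numbered libraries of different groups did not deviate together (12 correlations from -0.082 to 0.028). The fit was also run on simulated data, with few genes changed, none of them faint, in the Vgll4l group alone. That setting differs from these data, where many genes change and many members are faint, so nothing is drawn from it. Python 3.11.15, numpy 2.4.6, pandas 2.3.3 and matplotlib 3.10.9 made tables and figures. Promoter motifs and protein identity of paralogs were not analysed here.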

Additional observations from a re-analysis of the deposited data

Results flagged for a closer look

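Among 65 groups of 4 libraries with a mean of at least 20 normalized counts over the members given per library, 2 had a library far from the other 3, where chance flags about 5% of groups. Normalized counts of ephb4a were 43.3 in Yap/Taz replicate 1, below the 55.1 to 56.3 of the other Yap/Taz libraries, and all 4 lay below every control library. The count of efnb2a was 132.2 (132.18 before rounding) in Vgll4l replicate 2, above the 111.4 to 112.4 of the other Vgll4l libraries, and all 4 lay above every control library. Vgll4l replicate 2 is the library that stood apart over all genes.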

How the results depend on the processing

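Every member call was tried under 25 other settings, and none of the calls that passed in both a setting and the reported fit changed sign. The counts of members lower and higher stayed within 1.5 times the reported ones in every setting but a log2 fold change of at least 2, under which 11 members in place of 18 were lower in Yap/Taz than in Vgll4l clusters, since that threshold is stricter by construction. Of all genes 20.7% were lower there at that threshold, in place of 30.0%. With each library left out in turn, 28 to 30 members were lower and 9 to 10 higher after Vgll4l knockdown (40.4 to 41.6% and 29.9 to 30.7% of all genes). After Yap/Taz knockdown 29 were lower and 19 to 20 higher (38.2 to 38.9% and 29.5 to 30.4% of all genes). Between the knockdowns 18 to 19 were lower and 27 to 29 higher (29.3 to 30.2% and 32.7 to 33.9% of all genes). Of the 134 calls, 132 to 134 were shared with the reported ones. A replicate block, by numbers that do not pair the samples, left 29 members lower after Vgll4l knockdown, beside 40.9% of all genes. The call of plxna3 was lost (adjusted p = 0.0556) and the other 133 calls were kept. Of the 108 comparisons of members given per library, 106 kept their side of the threshold with DESeq2, 105 with TMM scaling and 103 with edgeR. The difference of sema4c between the knockdowns was lost with a pseudocount of 10 (log2 fold change -0.42). The Yap/Taz libraries differed from each other by 1.61 to 2.69 times counting noise and the Vgll4l libraries by up to 20.0 times. Averaging those within 3 times (control 1 with 2 and 3 with 4, Vgll4l 3 with 4, all Yap/Taz) left 28 lower after Vgll4l knockdown, beside 39.7% of all genes. All Yap/Taz libraries became 1 column there, without a spread of its own, so this setting cannot check the Yap/Taz calls. Genes of few reads limit the falls: 20, 23 and 27 of the 69 members had at most 3 reads over the control, Vgll4l and Yap/Taz group, and a fold below that depth was not measurable. Promoter motif and protein identity comparisons were not run.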
